A study of Mus musculus with 7 samples.

Results

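The ferritin chains and the iron chaperone partners of the poly(C)-binding proteins (PCBPs) are 8 genes: Fth1, Ftl1, Ncoa4, Slc11a2, Slc40a1, Hmox1, Bola2 and Glrx3. They were chosen by name, because their proteins store, release or carry iron or bind a PCBP, and were found by gene name in the authors' deposited table and joined by identifier to the counts of each library. All 8 were present among the 38924 genes of the count files, and all 8 were among the 16226 genes with enough reads to be tested. Messenger RNA of whole fetal liver of the mouse at 12.5 days post coitum had been sequenced from 3 PCBP2 knockout libraries (replicates 3, 4 and 5) and 4 wild-type libraries (replicates 1 to 4). The labels give no strain, sex, litter or batch, and they do not say which Pcbp2 allele was used or whether the deletion was in every cell. They also do not say whether a library is 1 animal or a pool, so p-values measure only the spread between these libraries.

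PCBP1 and PCBP2 are best known as proteins that bind C-rich RNA, and they also bind ferrous iron in the cytosol and hand it on. In cell and yeast experiments they delivered iron to ferritin, to iron-dependent prolyl and asparaginyl hydroxylases and to deoxyhypusine hydroxylase, and PCBP2 bound the importer DMT1, the exporter ferroportin and haem oxygenase 1. PCBP1 with glutathione can bind BOLA2, which with glutaredoxin 3 feeds cytosolic iron-sulfur cluster assembly. In the fetal liver most of this iron goes into haem for red cells.

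Setting knockout against wild type asks how messages of these iron genes stood without PCBP2. Ftl1, the ferritin light chain, fell by 38.0% in knockout and was the only member called by the test. Fth1, Ncoa4 and Bola2 were measured at 23.1%, 34.6% and 27.1% below wild type without passing the threshold in the count test used here, while the authors' deposited table gives them adjusted p-values below it. The intervals of Slc11a2, Slc40a1, Hmox1 and Glrx3 spanned no change. The level of Pcbp2 itself was 2.24, 1.39 and 2.22 CPM in the knockout libraries, against 165, 329, 347 and 338 CPM in the wild-type libraries. CPM are read counts divided by library size, with TMM adjusting that size for composition, and values for each library are listed in the order of replicates 3, 4 and 5 for knockout and 1 to 4 for wild type. All wild-type libraries were far above the knockout ones, and replicate 1 was the lowest of them.

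Of the 8 members, 4 carry an iron-responsive element, a short hairpin in the messenger RNA that iron regulatory proteins bind when iron is scarce. The elements are shown because the same proteins can act after transcription on messages of all 4 genes, where the message carries the hairpin. In a 5′ untranslated region the bound hairpin blocks translation, and in a 3′ untranslated region it is known, from Tfrc, to protect the message from decay. Each sequence is 30 bases, 5′ to 3′, with the loop in capitals, read from GENCODE M21 transcripts (build mm10).
Fth1, 5′ untranslated region: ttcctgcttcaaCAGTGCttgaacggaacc
Ftl1, 5′ untranslated region: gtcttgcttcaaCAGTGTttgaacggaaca
Slc40a1, 5′ untranslated region: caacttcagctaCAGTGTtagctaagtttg
Slc11a2, 3′ untranslated region: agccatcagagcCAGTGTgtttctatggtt

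The Fth1 element lies at chr19:9982732-9982761 on the plus strand and the Ftl1 element at chr7:45459778-45459807 on the minus strand. The Slc40a1 element is at chr1:45925464-45925493 and the Slc11a2 element at chr15:100395152-100395181, both on the minus strand. The Fth1 and Ftl1 elements were identical at 26 of 30 bases. The search asked for CNNNNNCAGTGN, with the last letter not G, on the transcript strand, for 5 base pairs above the bulged C and for at least 4 of 5 below it. G with T counted as a pair, and 1 unpaired base was allowed on the 3′ side of the upper stem, which the Slc11a2 element needs. The search found a match in 67 of 21901 coding genes, or 0.306%, and in 4 of the 8 members. No match was found in Ncoa4, Hmox1, Bola2 or Glrx3, which says only that this pattern is not in their annotated transcripts. Counts of messenger RNA do not measure translation. The Ftl1, Slc40a1 and Slc11a2 elements were each found in 1 annotated coding transcript, and counts per gene cannot separate transcripts.

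Messages of both ferritin chains were abundant. The shell of ferritin is built from heavy chains, which oxidise iron for storage, and light chains, which help form the mineral core. Ftl1 (ENSMUSG00000050708.8, chr7:45457944-45459884, minus strand) had 1065, 1458 and 1283 CPM in the knockout libraries, against 1962, 2071, 2078 and 2070 CPM in the wild-type libraries. All 3 knockout libraries lay below all 4 wild-type libraries, and the wild-type libraries varied less than the knockout ones (1269 ± 197 CPM in knockout and 2045 ± 55.8 CPM in wild type; SD, n = 3 and 4). The log2 fold change was -0.69 ± 0.13 (SE; 95% interval -0.97 to -0.41; edgeR adjusted p = 0.0153). By p, Ftl1 ranked 265 of 16226 genes. Without knockout replicate 5 the log2 fold change was -0.70 and the call was lost (edgeR adjusted p = 0.0903). In bulk tissue, fewer cells of a type and less RNA per cell cannot be told apart.

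Fth1 (ENSMUSG00000024661.6, chr19:9980598-9985098, plus strand), the heavy chain, had 938, 844 and 931 CPM in the knockout libraries, against 1348, 994, 1262 and 1101 CPM in the wild-type libraries. The knockout libraries again all lay below the wild-type ones, with wild-type replicate 2 the nearest to them. The log2 fold change was -0.38 ± 0.13 (SE; 95% interval -0.66 to -0.09), with an unadjusted p of 0.0139 and an edgeR adjusted p of 0.118. The authors' deposited table gives Fth1 a log2 fold change of -0.38 and an adjusted p of 0.0350. Both chains together took 0.208%, 0.246% and 0.231% of the reads in genes in knockout replicates 3 to 5, and 0.303%, 0.313%, 0.315% and 0.310% in wild-type replicates 1 to 4. The shares did not overlap between groups and were nearly equal among the wild-type libraries. The ratio of Ftl1 to Fth1 per transcript length was 1.1, 1.7 and 1.3 in knockout replicates 3 to 5 and 1.4, 2.0, 1.6 and 1.8 in wild-type replicates 1 to 4, and these ranges overlapped.

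Ncoa4 encodes the receptor that binds ferritin heavy chains and carries ferritin to the autophagosome, which frees its iron. Ncoa4 (ENSMUSG00000056234.8, chr14:32159865-32179855, plus strand) had 408, 260 and 352 CPM in the knockout libraries, against 679, 407, 547 and 447 CPM in the wild-type libraries. Knockout replicate 3 and wild-type replicate 2 were level, so the groups met there, while all other pairs were separated. The log2 fold change was -0.61 ± 0.20 (SE; 95% interval -1.05 to -0.17; edgeR adjusted p = 0.106). The authors' deposited table gives Ncoa4 a log2 fold change of -0.60 and an adjusted p of 0.0224.

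**Figure D1:**
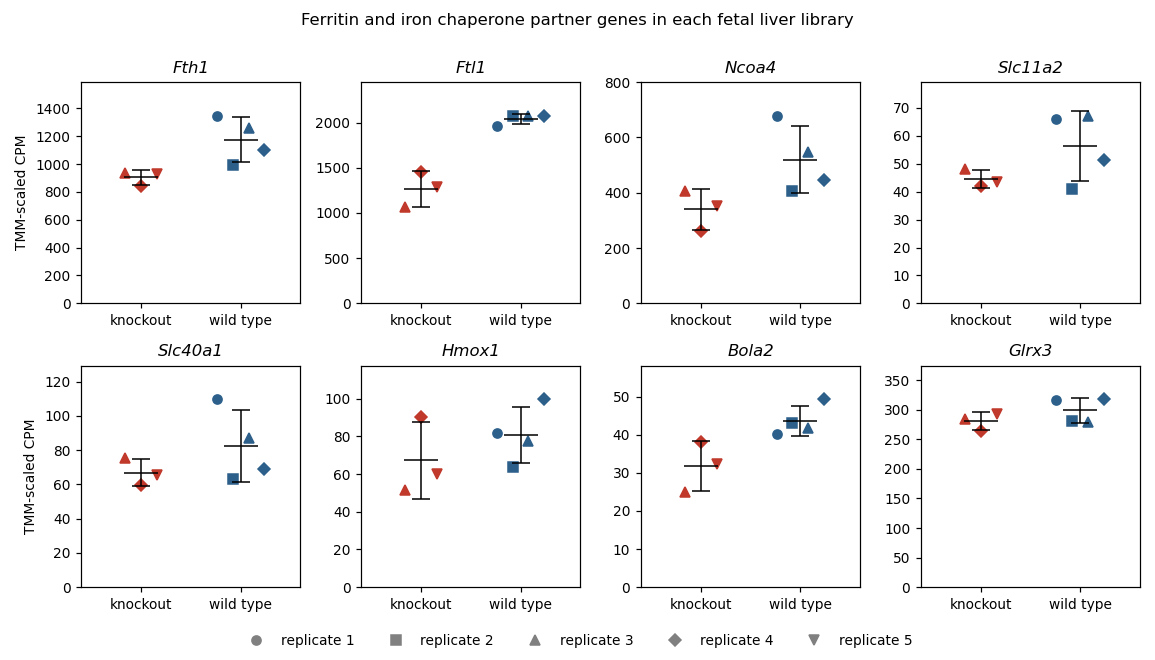
TMM-scaled CPM of each member gene (vertical axes, each from 0) in the 3 knockout and 4 wild-type libraries, 1 point a library with its replicate number as the symbol; bars show the mean ± SD. The knockout points of Ftl1, Fth1 and Bola2 all lie below the wild-type points, and the groups overlap for the other 5 genes.

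The messages of the iron transporters were the least abundant of the members per transcript length. Slc11a2 encodes DMT1, which brings ferrous iron into the cytosol from outside the cell and from endosomes. Slc11a2 (ENSMUSG00000023030.10, chr15:100387898-100425072, minus strand) had 48.1, 42.1 and 43.6 CPM in the knockout libraries, against 65.9, 40.9, 67.3 and 51.4 CPM in the wild-type libraries. Wild-type replicate 2 lay below all knockout libraries and the groups overlapped (log2 fold change -0.34 ± 0.16, SE; 95% interval -0.70 to 0.03; edgeR adjusted p = 0.265). The gene lies 2.05 Mb from Pcbp2 on chromosome 15. Slc40a1 (ENSMUSG00000025993.4, chr1:45908068-45926523, minus strand) encodes ferroportin, which exports iron from cells. It had 75.7, 59.7 and 65.3 CPM in the knockout libraries, against 109.6, 63.0, 87.1 and 69.2 CPM in the wild-type libraries. Wild-type replicates 1 and 3 were above all knockout libraries, replicates 2 and 4 were within their range, and the interval spanned 0 (log2 fold change -0.30 ± 0.18, SE; 95% interval -0.69 to 0.10; edgeR adjusted p = 0.370). Without wild-type replicate 1 the log2 fold change was -0.13.

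Hmox1 encodes haem oxygenase 1, which opens the haem ring and frees its iron. Hmox1 (ENSMUSG00000005413.7, chr8:75093621-75100589, plus strand) had 51.4, 90.4 and 59.9 CPM in the knockout libraries, against 82.0, 63.7, 77.6 and 99.6 CPM in the wild-type libraries. Knockout replicate 4 was above 3 of the 4 wild-type libraries, and the knockout libraries spread more widely than the groups differed (67.3 ± 20.5 CPM in knockout and 80.7 ± 14.8 CPM in wild type; SD, n = 3 and 4). The log2 fold change of -0.26 ± 0.20 (SE; 95% interval -0.70 to 0.18) was not called (edgeR adjusted p = 0.480). It depended on single libraries, at -0.10 without knockout replicate 3, -0.54 without knockout replicate 4 and -0.15 without wild-type replicate 4.

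Bola2 and Glrx3, the cytosolic pair that receives iron for cluster assembly, had log2 fold changes of different size. Bola2 (ENSMUSG00000047721.7, chr7:126695401-126699798, plus strand) had 24.9, 38.1 and 32.2 CPM in the knockout libraries, against 40.2, 43.0, 41.8 and 49.3 CPM in the wild-type libraries. All knockout libraries were below all wild-type libraries (log2 fold change -0.46 ± 0.14, SE; 95% interval -0.78 to -0.14; edgeR adjusted p = 0.0998), and the authors' deposited table gives Bola2 an adjusted p of 0.0359. Glrx3 (ENSMUSG00000031068.7, chr7:137437614-137468594, plus strand) had 285, 265 and 294 CPM in the knockout libraries, against 316, 282, 280 and 318 CPM in the wild-type libraries. The groups overlapped, and the log2 fold change of -0.09 ± 0.10 (SE; edgeR adjusted p = 0.643) had a 95% interval from -0.30 to 0.13. The direction of Glrx3 depended on the scaling, with a log2 fold change of 0.04 when libraries were scaled by total counts. The difference between Bola2 and Glrx3 was not tested.

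As a group, all 8 members had a negative log2 fold change, with a median of -0.36, against a median of 0.01 over all tested genes, of which 47.9% were negative, and Glrx3 was positive under total-count scaling. edgeR called 1 member lower and 0 higher, while over all genes it called 3.43% (556) lower and 1.59% (258) higher, or 5.02% in all. Total-count scaling moved the median of all genes to 0.14 and the calls to 393 lower and 651 higher, with Ftl1 still called lower. By unadjusted p, 4 members were under 0.05 (Ftl1, Bola2, Ncoa4 and Fth1), against 21.8% of all genes in either direction and 11.8% lower. All knockout libraries lay below all wild-type libraries in 3 members, against 10.8% of all genes, and above them in 0 members, against 9.83% of all genes. These 3 (Fth1, Ftl1 and Bola2) have short transcripts, for which the share below was larger. It was 23.2% of protein-coding genes of over 800 and up to 1200 bases, the class of Fth1 and Ftl1. In the class of Bola2, over 1200 and up to 2000 bases, it was 14.5%. In the authors' deposited table, 4 members had an adjusted p under 0.05, against 6.86% of its 15548 genes called lower. The log2 fold changes of the authors' deposited table and of edgeR differed by at most 0.0117 for any member.

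**Figure D2:**
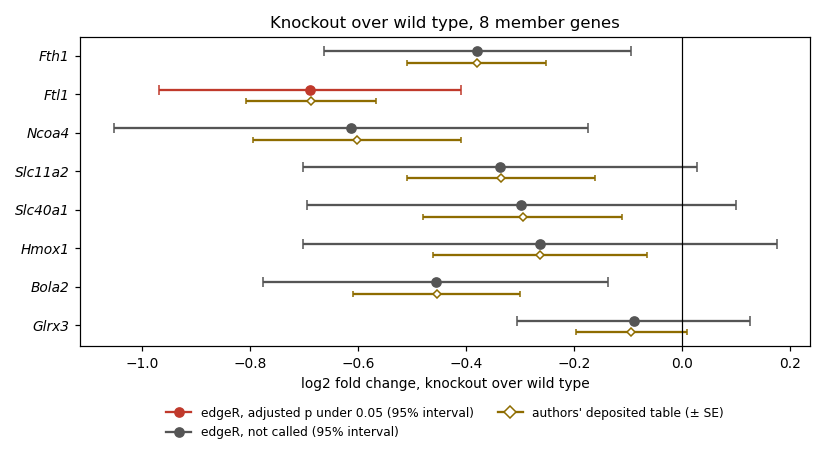
Log2 fold change of knockout over wild type (horizontal axis) for the 8 members, as edgeR estimates with 95% intervals (circles, red where called) and as the values of the authors' deposited table with their SE (open diamonds). Estimates from both sources nearly coincide, and the edgeR intervals of Fth1, Ftl1, Ncoa4 and Bola2 lie below 0.

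Levels of different genes can be compared per length, as CPM divided by the kilobases of the main transcript (RPKM). The order of levels was the same in both groups. Ftl1 stood at 1311 ± 203 RPKM in knockout and 2113 ± 57.7 RPKM in wild type, and Fth1 followed with 974 ± 56.8 and 1266 ± 171 RPKM in the same groups (SD, n = 3 and 4). Glrx3 came next with 167 ± 8.78 RPKM in knockout and 177 ± 12.4 RPKM in wild type, before Ncoa4 with 102 ± 22.2 RPKM in knockout and 156 ± 36.2 RPKM in wild type. Hmox1 and Bola2 lay between 25.1 and 51.5 RPKM on average, Slc40a1 had 19.9 ± 2.40 RPKM in knockout and 24.4 ± 6.21 RPKM in wild type, and Slc11a2 was lowest with 14.7 ± 1.05 RPKM in knockout and 18.6 ± 4.15 RPKM in wild type. Neighbours in this order whose mean ± SD overlapped were Hmox1 with Bola2 and Bola2 with Slc40a1 in knockout, and Glrx3 with Ncoa4 and Slc40a1 with Slc11a2 in wild type.

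The summed level of 16 erythroid marker genes moved with the groups. It was 17110, 12650 and 16260 CPM in the knockout libraries, against 91140, 50640, 73210 and 63910 CPM in the wild-type libraries, and 9 of the 16 markers were called lower. The globin genes among them fell most, with log2 fold changes from -3.12 (Hbb-bt) to -1.94 (Hba-a1). The other markers lay between -1.78 (Alas2) and -0.61 (Ermap), and Gata1, at -0.67, was not called. A sum follows its most abundant genes, so it is not a measure of the number of erythroid cells. Fth1, Ncoa4 and Slc40a1 had their libraries in exactly the order of this sum within knockout and within wild type, as did 6.77% of all tested genes. Slc11a2 followed the order in the knockout libraries, as did 25.8% of all tested genes. Ftl1, Hmox1 and Bola2 ran in the reverse order in the knockout libraries, highest in replicate 4 and lowest in replicate 3, as did 27.4% of all tested genes. Ftl1 was nearly level over the wild-type libraries, whose erythroid sums ranged from 50640 to 91140 CPM. The part of erythroid content in the difference between groups was not tested.

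**Figure D3:**
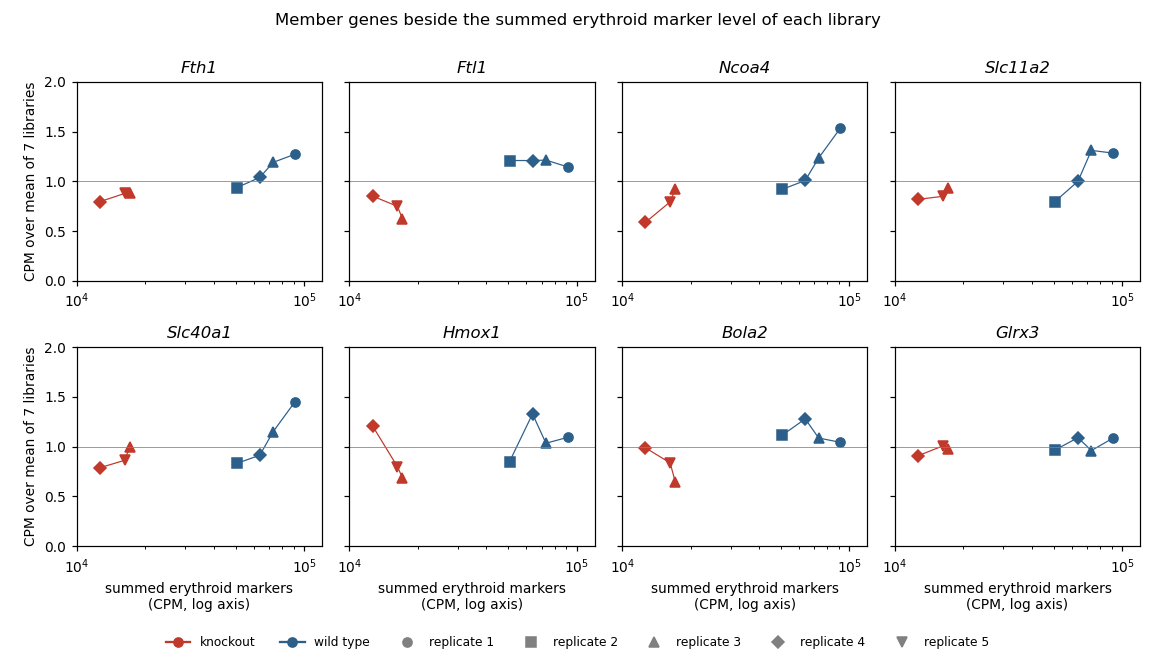
CPM of each member divided by its mean over the 7 libraries (vertical axes) beside the summed CPM of 16 erythroid markers in the same library (horizontal axes, log scale), with knockout in red, wild type in blue and lines joining the libraries of a group. Fth1, Ncoa4 and Slc40a1 climb with the marker sum inside both groups, while Ftl1 is flat inside wild type and drops inside knockout.

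Markers of other cell types also moved with the groups. Macrophages recycle iron from red cells and are rich in ferritin, Hmox1 and Slc40a1. Of 15 tested macrophage markers 7 were called lower (C1qa, C1qb, C1qc, Marco, Fcgr1, Adgre1 and Csf1r), and the summed level was 315 to 418 CPM in knockout and 465 to 528 CPM in wild type. The other 8 were not called, with log2 fold changes from -1.33 (Spic) to 0.38 (Cd163). Among these, Cd68 was at -0.002, Mrc1 at -0.006 and Vcam1 at -0.05. Vsig4 had too few reads over the libraries to be tested, with none in knockout. Of 8 megakaryocyte markers 6 were called lower, with sums of 230 to 238 CPM in knockout and 377 to 497 CPM in wild type. Markers of hepatoblasts, the parenchymal cells of the liver, had overlapping sums of 8073 to 10370 CPM in knockout and 6501 to 13610 CPM in wild type, with 0 of 12 markers called by edgeR, 1 called by DESeq2 and 1 at an unadjusted p under 0.05. Hepatoblast markers were called lower in other edgeR fits, 2 without wild-type replicate 2, 4 with a replicate block and 1 with no filter on low counts. Endothelial markers were called higher for 3 of 10 and heart muscle markers for 3 of 8, and knockout replicate 3 had the highest heart sum, 406 CPM, against 75.3 to 140 CPM in wild type. Without knockout replicate 5, 2 macrophage, 2 megakaryocyte and 1 endothelial marker were called, without knockout replicate 4 the counts were 4 macrophage, 3 megakaryocyte and 5 heart markers, and without wild-type replicate 2 they included 15 erythroid markers. Without wild-type replicate 3 there were 3 megakaryocyte markers, and without wild-type replicate 4 there were 4 macrophage markers. Their part in the members' values was not tested.

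Transcript length also moved with the result. Among tested protein-coding genes with a main transcript of over 800 and up to 1200 bases, which include Fth1 (929 bases) and Ftl1 (968 bases), the median log2 fold change was -0.15 and 7.85% of 930 genes were called lower. Among 2715 genes of over 1200 and up to 2000 bases, the class of Hmox1, Bola2 and Glrx3, the median was -0.05 and 4.6% were called lower. For the 3824 genes of over 3200 and up to 5000 bases, the class of Ncoa4 and Slc40a1, the median was 0.05 and 1.8% were called lower. With this length trend taken out of each library, Ftl1 stayed called, at a log2 fold change of -0.55 (edgeR adjusted p = 0.0183). Fth1 moved to -0.22 (edgeR adjusted p = 0.394) and Bola2 to -0.37 (edgeR adjusted p = 0.101), while Ncoa4 was at -0.65 (edgeR adjusted p = 0.102). The correction was chosen after the data had been seen.

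**Figure D4:**
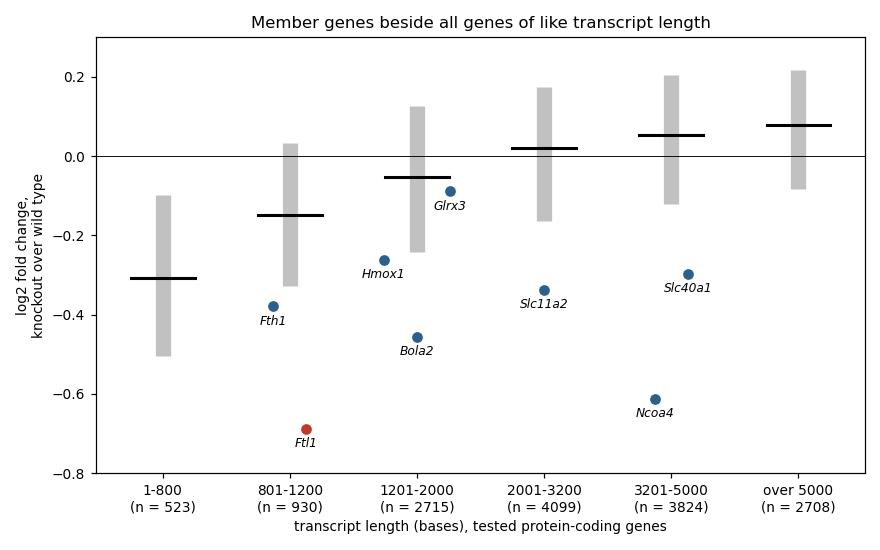
Log2 fold change of knockout over wild type (vertical axis) by main transcript length (horizontal axis), with the median (black line) and quartiles (grey bar) of all tested protein-coding genes in each class and the 8 members as points, red where called. Short transcripts have lower medians, and Fth1, Ftl1, Ncoa4, Slc11a2, Slc40a1, Hmox1 and Bola2 lie below the lower quartile of their class.

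Some members share sequence with other genes. Ftl1 shares 90.6% of its 50-base windows with annotated transcripts of other genes, most with the copy Ftl1-ps1, Ncoa4 shares 52.5% with the pseudogene Gm6768, and Glrx3 shares 45.4% with the pseudogene Gm12669. Bola2 shares 24.7%, all with Slx1b, which overlaps its exons by 360 bases on the opposite strand. The exons of Ftl1 are overlapped by Gm22133, by 109 bases on the same strand, and by Gm10252, by 355 bases on the opposite strand. Those of Slc11a2 are overlapped by Gm5475, by 402 bases on the opposite strand. Ftl1-ps1 held 0 to 3 reads and Gm6768 0 to 6 reads in any library, too few for adding them to the parent gene to move its value. Reads aligned to more than 1 place, which the files leave out of the gene counts, came to 11.3% to 14.7% of the total in knockout and 15.2% to 19.6% in wild type. The levels of Ftl1, Ncoa4 and Glrx3 are therefore uncertain to the extent that their reads fell in that class, and no source used here says whether the counting used the strand.

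The genes around ferritin in the same pathway were described from lists of which 90 different genes were tested, and 10 of the 90 were called, 9 lower and 1 higher. The 9 include Pcbp2, the deleted gene, whose fall the knockout itself makes. Over all tested genes 5.02% were called, 3.43% lower and 1.59% higher. In lists with 1 called gene the count rests on that gene alone and says little about the list. Without knockout replicate 5, 5 of these 10 remained called (Alas2, Blvrb, Glrx5, Pcbp2 and Srxn1), while without wild-type replicate 2 there were 16 called genes, which include all 10. In the list of ferritin and its turnover, 2 of 15 tested genes were called lower and 0 higher, with a median log2 fold change of -0.26. Apart from Ftl1 the called gene was Gabarapl2, an ATG8-family protein of the autophagosome membrane, with 59.1 ± 4.62 CPM in knockout and 99.6 ± 15.6 CPM in wild type (SD, n = 3 and 4; log2 fold change -0.75 ± 0.13, SE; edgeR adjusted p = 0.0113). This call was lost without knockout replicate 5 (edgeR adjusted p = 0.0575). The remaining turnover genes, which include the ubiquitin ligase gene Herc2 that targets NCOA4, lay between -0.41 and 0.19 apart from Ncoa4. Mitochondrial ferritin, Ftmt, had no reads, which allows up to 3 reads, or 0.0662 to 0.102 CPM by library, for counting error only.

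The iron regulatory protein system includes the 2 binding proteins, their regulator and the messages with hairpins. Of its 11 tested genes 2 were called lower and 0 higher, with a median of -0.30. The binding proteins were not called: Aco1 had a log2 fold change of 0.11 ± 0.09 (SE; edgeR adjusted p = 0.526) and Ireb2 of 0.29 ± 0.10 (SE; edgeR adjusted p = 0.135). Fbxl5, the iron-sensing ligase subunit that removes IREB2, was at 0.20 ± 0.10 (SE; edgeR adjusted p = 0.278). Tfrc, the transferrin receptor, had 766, 380 and 438 CPM in the knockout libraries, against 1375, 541, 1185 and 877 CPM in the wild-type libraries. Its groups overlapped at knockout replicate 3, and it was not called (log2 fold change -0.91 ± 0.32, SE; edgeR adjusted p = 0.130). Alas2, the erythroid enzyme that starts haem synthesis and carries a 5′ hairpin, fell to 186 ± 27.5 CPM in knockout, against 639 ± 151 CPM in wild type (SD, n = 3 and 4; log2 fold change -1.78 ± 0.19, SE; edgeR adjusted p = 0.00227). Tfrc and Alas2 are also among the erythroid markers.

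Among 18 tested genes of iron transport and reduction, 1 was called lower and 0 higher, and the median was -0.11. It was Slc25a37, mitoferrin 1, which imports iron into the mitochondria of red cell precursors, with 565 ± 156 CPM in knockout and 1433 ± 524 CPM in wild type (SD, n = 3 and 4; log2 fold change -1.34 ± 0.29, SE; edgeR adjusted p = 0.0287). That call was lost when wild-type replicate 1, wild-type replicate 3, knockout replicate 4 or knockout replicate 5 was left out, with edgeR adjusted p-values between 0.0544 and 0.123. The hepcidin gene Hamp had no reads. Of 11 cytosolic iron-sulfur assembly genes, edgeR called 0 and DESeq2 called 2, 6 had an unadjusted p under 0.05, and the median was -0.21. Ciao2a (Fam96a), a targeting factor of that machinery, was nearest to the threshold, at -0.37 ± 0.11 (SE; edgeR adjusted p = 0.0784), followed by Bola2.

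Bola2 and Glrx3 belong to families whose other members act partly in mitochondria. Of 7 glutaredoxin and BolA genes 1 was called lower and 0 higher, with a median of -0.46. Glrx5, the mitochondrial glutaredoxin that red cell precursors need for cluster transfer and haem synthesis, had 117 ± 9.25 CPM in knockout and 211 ± 30.01 CPM in wild type (SD, n = 3 and 4; log2 fold change -0.85 ± 0.12, SE; edgeR adjusted p = 0.00656). All 7 had negative values, of which Glrx2 and Glrx3 turned positive under total-count scaling, and the other 6 were not called. Without wild-type replicate 2 there were 3 called genes in this list and without knockout replicate 3 there were 2.

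Of 22 genes of haem breakdown and of the NRF2 and BACH1 factors, which control ferritin and Hmox1 transcription, 4 were called lower and 0 higher, with a median of -0.28. Besides Ftl1 these were Blvrb, Srxn1 and Slc48a1. Blvrb, a biliverdin reductase, had 113 ± 5.97 CPM in knockout and 315 ± 53.2 CPM in wild type (SD, n = 3 and 4; log2 fold change -1.48 ± 0.14, SE; edgeR adjusted p = 0.00133). Srxn1, which repairs oxidised peroxiredoxins, was at -1.08 ± 0.17 (SE; edgeR adjusted p = 0.00749). Slc48a1, a haem transporter, was at -0.65 ± 0.11 (SE; edgeR adjusted p = 0.0103), and its call was lost without knockout replicate 5 (edgeR adjusted p = 0.0704). The erythroid and macrophage marker sums given above differ between the groups in the same direction as these called genes, and their part was not tested.

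The hydroxylases that receive iron from PCBPs, and relatives that need the same metal, were a list with 1 gene called higher and 0 called lower by edgeR. There were 11 tested genes, with a median of -0.02. Plod2, a collagen lysyl hydroxylase, had 116 ± 22.95 CPM in knockout and 77.1 ± 3.54 CPM in wild type (SD, n = 3 and 4; log2 fold change 0.59 ± 0.12, SE; edgeR adjusted p = 0.0253). The Plod2 call was lost in 5 of the 7 fits that left out a library, all but those for wild-type replicate 2 and knockout replicate 3, with edgeR adjusted p-values between 0.0542 and 0.0790. Without knockout replicate 3, 4 genes of the list were called higher. Egln1, a prolyl hydroxylase of the hypoxia factors, had 58.4, 112 and 73.6 CPM in the knockout libraries, against 49.9, 59.1, 59.1 and 58.7 CPM in the wild-type libraries, and was not called (log2 fold change 0.52 ± 0.19, SE; edgeR adjusted p = 0.135). Hif1an was at -0.04 ± 0.09 (SE; edgeR adjusted p = 0.834) and Dohh at -0.18 ± 0.17 (SE; edgeR adjusted p = 0.594).

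**Figure D5:**
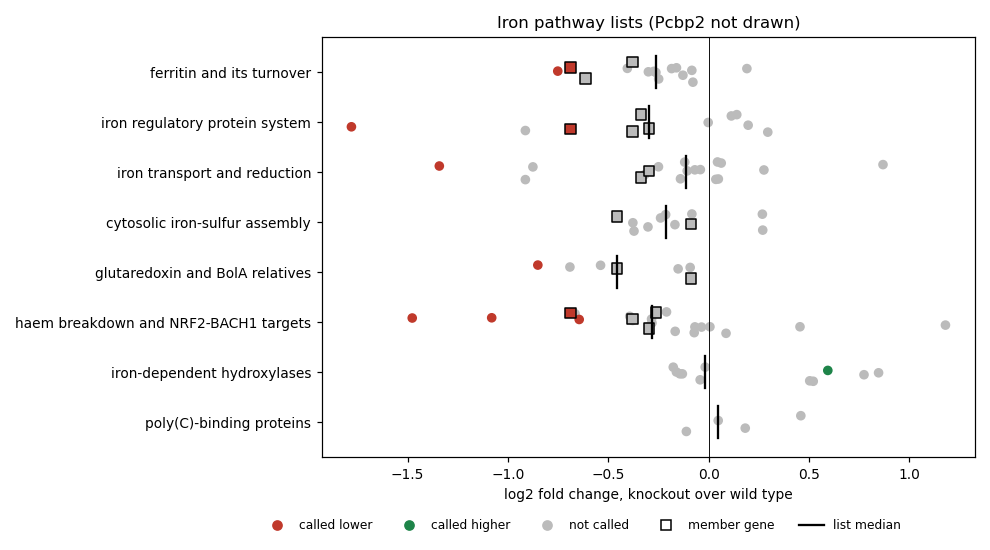
Log2 fold change of knockout over wild type (horizontal axis) for the tested genes of each iron pathway list, 1 point a gene, red where called lower, green where called higher and grey where not called, with members as squares and the median of each list as a black line; Pcbp2 is not drawn but counts in its median. Called genes lie at negative values except Plod2, and a gene that belongs to several lists is drawn in each.

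The other poly(C)-binding proteins were not called. Pcbp1, the chaperone closest to PCBP2, had 270, 294 and 266 CPM in the knockout libraries, against 281, 277, 320 and 318 CPM in the wild-type libraries, with a log2 fold change of -0.11 ± 0.10 (SE; edgeR adjusted p = 0.561). The groups overlapped. Pcbp3 was at 0.18 ± 0.13 (SE; edgeR adjusted p = 0.451), Pcbp4 at 0.46 ± 0.21 (SE; edgeR adjusted p = 0.238) and Hnrnpk at 0.05 ± 0.10 (SE; edgeR adjusted p = 0.827). Pcbp2 was at -7.26 ± 0.34 (SE; edgeR adjusted p = 1.29e-05).

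The genes whose profile over the 7 libraries was most like that of Ftl1 were Tmem107, a membrane protein of the cilium base, Polr2l, a small subunit of the RNA polymerases, and Atp5k, a small subunit of the mitochondrial ATP synthase. Likeness was the root mean square difference of log2 CPM centred on the mean over libraries, over 10800 genes that averaged 5 CPM or more. The difference was 0.0558 for Tmem107, 0.0597 for Polr2l and 0.0672 for Atp5k. Being chosen for likeness to a called gene, they carry no test of their own here.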

How the data were processed

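The members and gene lists were chosen with earlier results of these data known. For each of the 7 libraries the authors deposited unnormalised counts of reads by gene, followed by 5 summary lines that were left out of all totals. The libraries are labelled TruSeq stranded mRNA, per the labels' protocols, and cutadapt 1.4.2, TopHat2, HTSeq, DESeq2 and DESeq with build mm10 are named per the submitters' processing notes, with no settings. The authors' deposited table holds a mean normalized signal per gene, a log2 fold change with its standard error, a Wald score and a p-value, unadjusted and adjusted, for 15548 genes. Gene names came from that table for 15548 identifiers and from GENCODE M21 for 22194, and 1182 had none.

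Reads in genes numbered 31898339, 42378821 and 33593856 in knockout replicates 3, 4 and 5, and 32240949, 40090040, 38753337 and 44544889 in wild-type replicates 1 to 4. Members had between 824 and 90024 reads per library. Counts were fitted in R 4.3.3 with edgeR 4.0.16 (filterByExpr, TMM, quasi-likelihood test, group as the only term), with Benjamini-Hochberg adjustment over 16226 genes and calls at 0.05. CPM values are TMM scaled; RPKM values use the length of the main annotated transcript. Named genes were the 8 members, the poly(C)-binding list, the called genes of each pathway list (or the 2 with the smallest p), 7 iron regulators and hydroxylases (Tfrc, Aco1, Ireb2, Fbxl5, Egln1, Hif1an and Dohh) and the 3 profiles nearest to a called member. Other genes named in the text illustrate a list and were chosen after their values were seen. Alternatives were total-count scaling, RLE size factors, other filters, DESeq2 1.42.0, limma-voom (limma 3.58.1), each library left out, a replicate block, globin genes left out, annotated ferritin copies added to the parent gene and, added after seeing the data, pseudogenes with shared windows added to the parent gene and a transcript-length correction (a loess trend of each library on log2 length, used as an offset). Nothing was tested over a list.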

Additional observations from a re-analysis of the deposited data

Results flagged for a closer look

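In 4 of 32 named genes, wild-type replicate 1 stood far from the other 3 wild-type libraries. Chance gives such a gap in about 1 of 20 genes when a gap at any of the wild-type libraries counts, so less often at replicate 1. The 32 include genes chosen for their calls or for likeness to Ftl1, so they are not a random sample of genes. Of all 16226 tested genes, 5.23% had such a gap at any wild-type library and 1.97% had it at replicate 1. It was lowest for Ftl1 (1962 CPM, with 2070 to 2078 CPM in the others, a gap of 5.22%), for Egln1 (49.9 CPM, with 58.7 to 59.1 CPM in the others) and for Pcbp2 (165 CPM, with 329 to 347 CPM in the others). It was highest for Fbxl5 (73.0 CPM, with 60.8 to 62.7 CPM in the others). The same library had the highest erythroid marker sum, 91140 CPM. Without it, Ftl1 stayed called, with a log2 fold change of -0.71 (edgeR adjusted p = 0.0309).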

How the results depend on the processing

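Over 133 alternative values of the 8 members, 132 were negative. All 133 are refits of the same 7 libraries or of part of them, so the tally is not a count of independent results. Of the 133, 5 only add the few reads of gene copies, which could not move a value. The value that was not negative was that of Glrx3 under total-count scaling (0.035), which shifts all genes upward (651 genes called higher). DESeq2 called 4 members lower, adding Fth1 (-0.38), Ncoa4 (-0.62) and Bola2 (-0.46). It also called more genes over the whole series, 1047 lower and 623 higher, against 556 and 258 in the main edgeR fit. Pathway genes called by DESeq2 numbered 21, against 10 in the main fit. Leaving out 1 library at a time gave 0 to 1 members lower, 116 to 753 genes lower, 24 to 418 higher and 5 to 16 pathway genes, and Ftl1 ranged from -0.80 to -0.58. Without knockout replicate 5 no member was called by edgeR, and Ftl1 was at -0.70 (edgeR adjusted p = 0.0903). At least 5 of the 10 called pathway genes, always with the deleted gene Pcbp2, remained in each of those fits, and all 10 in the fits that kept all 7 libraries. The cause of these losses was not tested.

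Both groups share replicate numbers 3 and 4 only. The same-numbered libraries deviated together (correlations 0.373 and 0.341), but 2 shared numbers do not establish a pairing. With a replicate block, 1204 genes were lower and 852 higher, with 27 pathway genes and 5 members called lower: Ftl1, Ncoa4 (-0.60), Slc11a2 (-0.39), Hmox1 (-0.36) and Bola2 (-0.56). The main fit called 556 genes lower and 258 higher, with 10 pathway genes and 1 member. In the block fit the group difference comes from replicates 3 and 4 alone, as no other number occurs in both groups. The spread of a gene between libraries is measured from those replicates alone too, so p-values of the block fit rest on little. The larger counts of the block fit therefore do not rest on all libraries. Each member had 824 reads or more in every library. How far depth or the number of libraries limits the calls was not tested.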
